A study of Mus musculus with 6 samples.

Results

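The genes described here are 49 mouse genes of DNA replication and nucleotide supply. They were chosen by name from the textbook machinery, with earlier results of these data known. All 49 were found by symbol among the 49671 genes of the tables. They fall into 7 roles: 10 origin licensing genes, 6 of helicase activation, 9 of primase and the replicative polymerases, 11 of the clamp, clamp loader, single-strand binding and flap repair, 5 of nucleotide supply, 4 G1/S cyclins and E2F factors, and 4 of chromatin assembly and histone mRNA.

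The libraries were made from OT-I CD8 T cells, which carry a transgenic T cell receptor for the SIINFEKL peptide of ovalbumin, from cultures with the label splenocytes. They were activated for 48 h with that peptide displayed by antigen-presenting cells, and all 3 groups share this stimulation and genotype. The groups received an isotype control, BiTS or BiTS(mut), where BiTS is a bispecific molecule that brings LAG-3 close to the T cell receptor and BiTS(mut) is not described further in the labels. Each group has 2 libraries, and the study asked how the transcriptomes of the treated cells differ. No unstimulated library was analysed here, so the values below compare activated cultures with each other and not with resting cells. The labels give neither the age of the mice nor whether the libraries of a group came from separate cultures or animals, so the p-values reflect the scatter among these libraries, which may be technical.

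Proliferating cells license origins by loading the Mcm2-7 helicase rings with the help of the origin recognition complex, Cdc6 and Cdt1. In S phase the rings are activated by Cdc45, the GINS complex and Mcm10. The fork is then copied by the DNA polymerases alpha, delta and epsilon, and Pcna is the sliding clamp of delta and epsilon. Ribonucleotide reductase, thymidylate synthase, thymidine kinase and dUTPase supply and clean the deoxynucleotide pool. Many of these genes are textbook targets of the E2F factors, which cyclin E and its kinase release at the G1/S transition, and activated CD8 T cells are known for very short cell cycles.

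Before the results, 3 facts on the libraries bear on every value. Gene counts ran from 10813123 to 15239077 per library, and a count of 3, the limit that a count of 0 allows, was worth 0.197 to 0.277 CPM, the count relative to the library's total. The levels given below are CPM on TMM-scaled totals. All 49 genes were well above that limit in all 6 libraries, the lowest single value being 11.8 CPM for Fen1 in BiTS replicate 1. The libraries with title numbers 1 to 3 (replicate 1 of each group, called set 1 below) stood apart from those with numbers 4 to 6 (isotype replicate 4 and replicate 2 of BiTS and BiTS(mut), called set 2) on the first principal component, which held 65.4% of the variance. The labels do not say what the numbers stand for. Markers of CD8 T cells summed to 1739 to 2491 CPM, with 8 of 8 genes tested. Those of dendritic cells summed to 2221 to 4238 CPM, with 19 of 20 tested and Siglech at 0 in all 6 libraries. Most of each sum came from 3 genes, which were Lck, Thy1 and Cd8a in the CD8 T cell list. In the dendritic cell list they were Irf8 (619.7 to 1025.3 CPM), Ccr7 (432.8 to 772.9 CPM) and Cd74 (307.1 to 838.1 CPM). Among the lower ones, Flt3 reached at most 23.2 CPM, Xcr1 34.2 CPM and Clec9a 47.7 CPM. The 2 sums therefore do not give the share of either cell type. The other lists were low, with at most 43.0 CPM for 12 macrophage and monocyte markers, 12.3 CPM for 8 B cell markers, 45.7 CPM for 6 NK and innate lymphoid markers, 0.493 CPM for 6 neutrophil markers (S100a8 and S100a9 at 0 in all 6) and 0.825 CPM for 6 erythroid markers (4 at 0 in all 6). The values are those of whole cultures, in which fewer cells of a type and less RNA per cell cannot be told apart.

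The promoters of 4 genes on which the results turn are shown first, since E2F binding letters are the textbook feature of these genes. E2f2 and Rrm2 are the members called between BiTS and isotype in the fit with the set as a block. Cdc6 and Mcm6 are licensing genes that differed in opposite directions between the sets on the TMM scale. By spike-in scaling both had negative values between the sets. Each window is the first that the RefSeq table (GRCm38.p6) lists for the gene, 5′ to 3′ on the gene's own strand. Capitals mark every match to TTTCCCGC, TTTCGCGC, TTTGCCGC or TTTGGCGC, read on both strands. The E2f2 window lies at chr4:136172024-136172323 (plus strand), that of Rrm2 at chr12:24708004-24708303 (plus), that of Cdc6 at chr11:98907901-98908200 (plus) and that of Mcm6 at chr1:128359656-128359955 (minus).
E2f2: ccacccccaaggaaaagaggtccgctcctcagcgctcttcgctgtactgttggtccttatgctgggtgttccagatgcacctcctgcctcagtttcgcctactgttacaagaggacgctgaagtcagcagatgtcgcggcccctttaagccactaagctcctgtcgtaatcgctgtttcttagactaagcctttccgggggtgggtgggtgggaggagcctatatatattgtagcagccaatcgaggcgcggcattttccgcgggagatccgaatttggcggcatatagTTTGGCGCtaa
Rrm2: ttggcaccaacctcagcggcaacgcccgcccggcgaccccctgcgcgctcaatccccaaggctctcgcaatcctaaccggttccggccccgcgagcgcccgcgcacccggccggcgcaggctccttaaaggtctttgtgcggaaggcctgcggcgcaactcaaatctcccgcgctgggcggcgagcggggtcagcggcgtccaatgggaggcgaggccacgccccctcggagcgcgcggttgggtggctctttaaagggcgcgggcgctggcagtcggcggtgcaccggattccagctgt
Cdc6: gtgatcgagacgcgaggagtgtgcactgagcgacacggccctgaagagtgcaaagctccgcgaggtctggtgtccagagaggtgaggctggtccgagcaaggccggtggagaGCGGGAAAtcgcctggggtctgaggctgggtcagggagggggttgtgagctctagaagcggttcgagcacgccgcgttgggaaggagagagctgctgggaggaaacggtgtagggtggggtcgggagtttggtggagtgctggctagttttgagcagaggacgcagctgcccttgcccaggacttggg
Mcm6: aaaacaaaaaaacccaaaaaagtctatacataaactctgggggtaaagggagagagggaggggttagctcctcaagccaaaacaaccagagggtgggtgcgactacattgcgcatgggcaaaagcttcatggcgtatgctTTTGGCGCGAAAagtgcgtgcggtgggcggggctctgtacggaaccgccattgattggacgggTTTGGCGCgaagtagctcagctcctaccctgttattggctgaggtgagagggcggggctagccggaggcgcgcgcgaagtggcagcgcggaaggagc
The E2f2 window holds 1 match near its 3′ end, the Cdc6 window holds 1 on the opposite strand, and the Mcm6 window holds 3, of which 2 share bases. None of the 4 motifs is in the Rrm2 window. The Cdc6 window lies inside the gene as counted, whose listed start is at 98907801, so its match is not upstream of that start.

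Of the 41 members with an entry in that table, 16 had such a match in at least 1 of their windows, or 39.0%, against 704 of 27025 genes (2.61%) and 468 of the 9916 tested genes with an entry (4.72%). With TTTCCCGC and TTTGGCGC alone the figures were 13 members (31.7%), 1.80% and 3.50%. The matches were unevenly spread over the roles: 7 of 9 licensing genes held one, as did 4 of 7 polymerase genes, 2 of 10 clamp and flap repair genes, and 0 of 5 nucleotide supply genes. In helicase activation and the G1/S factors 1 of 3 each held one, and in chromatin assembly 1 of 4. A match is a description of letters and not a binding site, and these shares carry no test. Some windows, among them those of Cdc6, Dut and E2f1, lie wholly inside the counted gene. Matches or their absence there do not describe the bases before the gene's listed start. Mcm4, Gins1, Gins2, Gins4, Prim2, Pole, Rfc2 and Ccne2 have no entry.

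Levels were compared between genes per kilobase of listed exon (RPKM), as the mean of 6 libraries with its SD. Pcna, the sliding clamp, stood highest at 125 ± 9.15 RPKM and Pola1, the catalytic subunit of polymerase alpha, lowest at 5.53 ± 0.468. The median member was at 21.5 RPKM. Among licensing genes the order ran from Mcm3, a ring subunit, at 80.8 ± 4.92 down to Orc1, the largest origin recognition subunit, at 9.72 ± 1.49. The 6 ring subunits, which assemble in equal number, had unequal mRNA levels per length, with Mcm6 at 67.1 ± 7.93 and Mcm5 at 65.8 ± 4.57, then Mcm7 at 53.1 ± 6.15, Mcm4 at 35.2 ± 1.88 and Mcm2 at 23.4 ± 2.39. The order of Mcm6 and Mcm5 depended on the set: per length Mcm6 was above Mcm5 in every library of set 1 and below it in every library of set 2. Over the 6 libraries Mcm6 ran from 56.1 to 77.4 RPKM and Mcm5 from 58.1 to 71.0.

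In the other roles the extremes were as follows. Cdc45 led helicase activation at 37.0 ± 2.60 RPKM, and Gins3 was lowest at 9.34 ± 1.97. Pold1, the catalytic subunit of polymerase delta, led the polymerases at 71.6 ± 7.15. Fen1, the flap endonuclease, was the lowest of the clamp group at 5.67 ± 0.948. Dut, the dUTPase, and Rrm2, the small subunit of ribonucleotide reductase, had similar means over both sets, at 58.4 ± 17.0 and 58.2 ± 6.07. Their order depended on the set: Rrm2 was above Dut in every library of set 1 and below it in every library of set 2. The lowest nucleotide gene was Tyms, thymidylate synthase, at 7.20 ± 1.24. E2f2 stood at 57.3 ± 9.70 and Ccne2, one of the pair of cyclins E, at 8.85 ± 1.30. Uhrf1, which couples DNA methylation to replication, led the last group at 59.3 ± 4.61, and Chaf1b, a chromatin assembly factor subunit, closed it at 10.5 ± 0.992. Exons of 16 members share bases with another gene, and since the strand setting is not given in the sources used here, such reads cannot be told apart. The overlap is largest for Fen1, with 78.8% of its exon bases under the antisense gene Gm10143, and for Gins2, with 67.3% under Gse1, so their levels are uncertain.

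**Figure D1:**
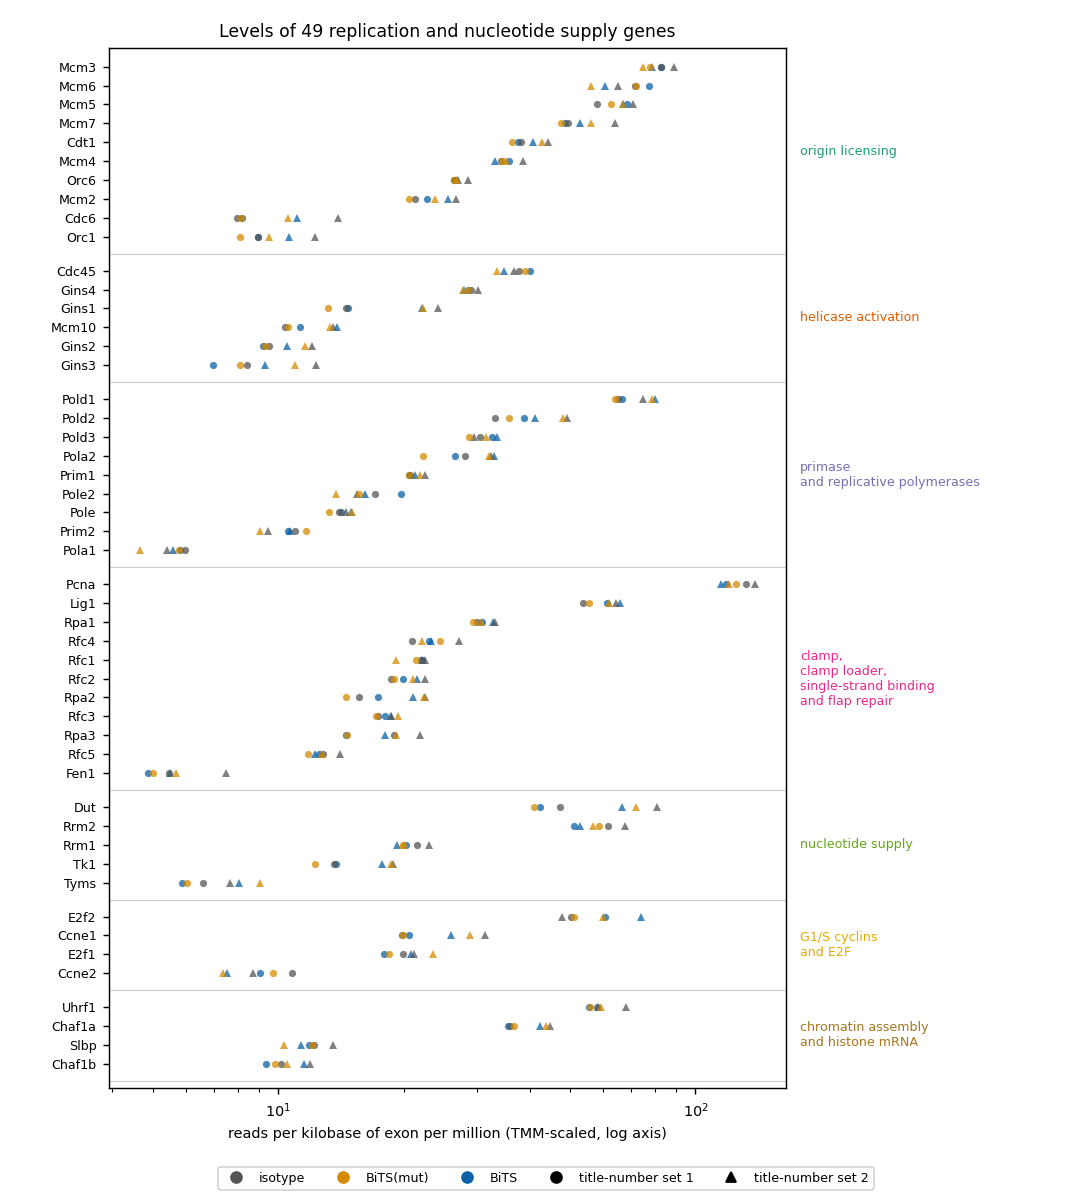
Level of each of the 49 genes in each of the 6 libraries, in TMM-scaled RPKM on a log axis, grouped by role, with colour for treatment and shape for title-number set. The genes span from about 5.53 (Pola1) to 125 (Pcna), and within most genes the 6 libraries lie close together compared with the distance between genes.

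The comparison of BiTS with isotype asks whether the silencer changed replication genes in activated cells. E2f2, an E2F family transcription factor, was at 296.5 and 360.4 CPM in BiTS replicates 1 and 2, at 245.3 and 233.2 CPM in isotype replicates 1 and 4, and at 249.8 and 293.2 CPM in BiTS(mut) replicates 1 and 2. Both BiTS libraries lay above all 4 others and BiTS(mut) lay between, above isotype without overlap. Rrm2 was at 141.7 and 146.7 CPM in the BiTS libraries, at 170.8 and 187.9 CPM in those of isotype, and at 162.8 and 157.6 CPM in those of BiTS(mut). Here the order was the opposite one, with both BiTS libraries lowest and both isotype libraries highest.

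Without a block for the set, edgeR's quasi-likelihood test called no gene between BiTS and isotype at a Benjamini-Hochberg adjusted p under 0.05 (0% of 13996 tested), while 176 had an unadjusted p under 0.05. The counts by DESeq2 and by limma-voom were also 0. Of the 49 members 0 were called, and 1, E2f2, had an unadjusted p under 0.05. With the set as a block the test called 476 genes (3.4%), 253 higher (1.81%) and 223 lower (1.59%), and 2 of the 49 members. This is 4.08% of the members, close to the share over all genes. E2f2 was 1.36-fold higher in BiTS (log2 fold change 0.45 ± 0.09 SE, 95% interval 0.27 to 0.62, adjusted p = 0.000716 by edgeR with the block, higher in 2 of 2 sets). Rrm2 was 1.24-fold lower (-0.31 ± 0.08, interval -0.48 to -0.14, adjusted p = 0.0237, lower in 2 of 2 sets). Their unblocked log2 fold changes were 0.46 ± 0.17 and -0.32 ± 0.14 and neither was called.

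Of 14 alternatives with the block, E2f2 was called in 12. Its call was lost by spike-in scaling and without BiTS replicate 2 (log2 fold change 0.35, blocked edgeR adjusted p = 0.234), and its value fell to 0.29 without isotype replicate 4, where it was still called. Rrm2 was called in 6 of 14. Its call was lost by DESeq2, by spike-in scaling and in the fit of only the 4 libraries compared, and without any 1 of BiTS replicates 1 and 2, isotype replicate 4 and BiTS(mut) replicates 1 and 2, where its value ran from -0.32 to -0.25. Beside these calls, 9 of 19 dendritic cell markers were lower in BiTS with the block (median log2 fold change -0.35) and 3 of 8 CD8 T cell markers higher (median 0.21). The part of cell composition in the E2f2 and Rrm2 differences was not tested.

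In nucleotide supply, all 5 genes had a negative log2 fold change in BiTS against isotype, except that Tk1 and Tyms lay slightly above 0 by spike-in scaling with the block, and their median with the block was -0.17, beside -0.05 for all members and -0.005 for all genes tested. Rrm1, the large subunit of ribonucleotide reductase, was at 223.2 and 211.8 CPM in BiTS and 236.9 and 253.1 CPM under isotype, without overlap, but was not called (-0.17 ± 0.08, blocked edgeR adjusted p = 0.327). Relative to Rrm1 per length, Rrm2 stood at 2.52 and 2.75 in BiTS, 2.87 and 2.95 in isotype, and 2.96 and 2.85 in BiTS(mut). The ratio was thus lowest in the BiTS libraries, as a description of a pair chosen after its values were seen. Dut (-0.22 ± 0.09), Tyms (-0.05) and Tk1 (-0.03) completed the group without a call. Without the block, the group's median ran from -0.28 to 0.07 with 1 library left out, and it was positive without BiTS replicate 1 and without isotype replicate 4.

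Among the G1/S factors E2f2 stood alone, the other 3 having negative values with no call. The ratio of E2f2 to E2f1 per length, also chosen after seeing the values, was 3.40 and 3.55 in BiTS, 2.53 and 2.26 in isotype, and 2.78 and 2.56 in BiTS(mut). E2f1 itself was at 56.3 and 65.6 CPM in BiTS and 62.6 and 66.7 CPM under isotype, and the groups overlapped. Ccne2 was at -0.23 and Ccne1 at -0.11 on the log2 scale.

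Origin licensing and fork genes gave no call. The median log2 fold change with the block was -0.07 for licensing genes (7 of 10 negative), -0.06 for helicase activation, 0.03 for primase and polymerases, -0.01 for the clamp group and -0.11 for chromatin assembly. The lowest uncalled value was that of Gins3, a GINS subunit, at 18.9 and 25.2 CPM in BiTS and 22.8 and 33.3 CPM in isotype (-0.34 ± 0.13, blocked edgeR adjusted p = 0.152). Its groups overlapped, and each BiTS library lay below the isotype library of its own set. Pcna was at 283.3 and 276.9 CPM in BiTS and 317.4 and 334.3 CPM in isotype, without overlap (-0.22 ± 0.08, adjusted p = 0.154). For the 47 uncalled members the 95% intervals of the blocked fit all lay within a 2-fold change either way, from -0.63 (Fen1) to 0.39 (Pole2), and 44 lay within ±0.5 on the log2 scale. Without the block 47 of 49 intervals lay within 2-fold. These intervals bound a difference and do not show that the groups are alike.

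**Figure D2:**
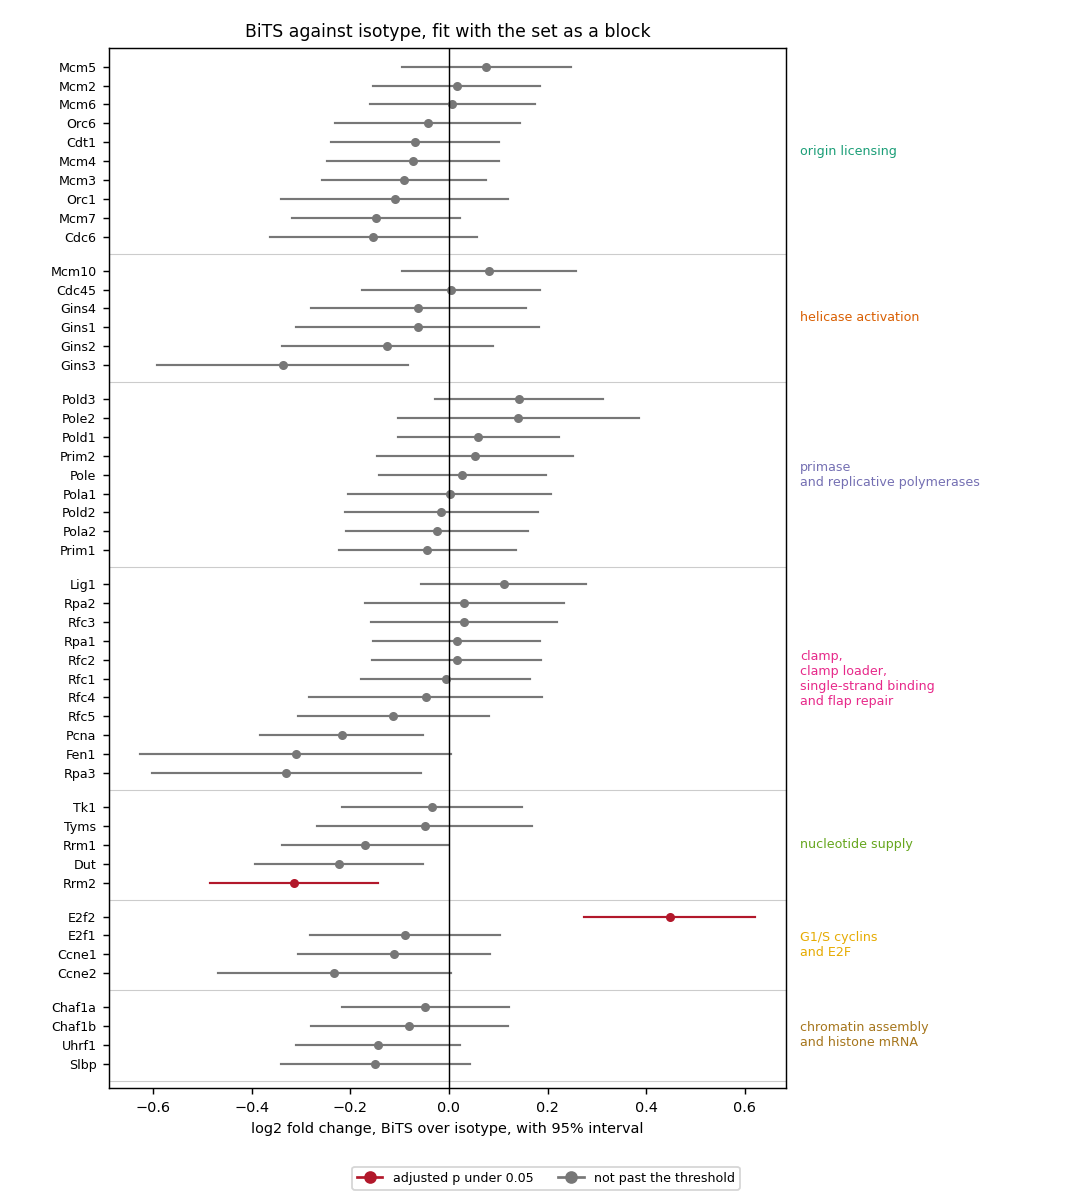
Log2 fold change of BiTS over isotype for the 49 genes in the fit with the title-number set as a block, with 95% intervals, grouped by role and with the called genes in red. E2f2 at 0.45 and Rrm2 at -0.31 are the genes past the threshold, and most other intervals include 0.

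On the TMM scale, the sign of the median member in BiTS against isotype depended on isotype replicate 4 in the unblocked fit and not in the blocked one. It depended on the scaling in both fits. By spike-in scaling the median member was at 0.011 without the block and 0.006 with it, and the median of all genes was at 0.05 in both. Isotype replicate 4 held the highest value of the 6 libraries for 33 of the 49 members (67.3%), against 19.7% of all genes tested. BiTS(mut) replicate 1 was the lowest library for 17 of the 49 members, and for 18.2% of all genes tested. The median member was at -0.05 in BiTS against isotype without the block, at 0.05 without isotype replicate 4 and at -0.15 without isotype replicate 1. Leaving out an isotype library there sets the other one, from a single set, against BiTS libraries of both sets. With the block the median stayed negative without any 1 library, from -0.0915 to -0.0091, the latter without isotype replicate 4. Within set 1 the median log2 ratio was -0.01, and within set 2, which holds isotype replicate 4, it was -0.09.

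Both comparisons with BiTS(mut) share libraries with the one above, so they are given side by side with it and not as separate support. Against isotype, edgeR called 0% of genes without the block (41 genes had an unadjusted p under 0.05, and both DESeq2 and limma-voom called 0) and 7 (0.05%) with it, and 0 of 49 members either way. The median member was at -0.07 in both fits, with 38 of 49 negative in the blocked one, and at 0.03 without isotype replicate 4 in the unblocked one. The members with the smallest p were Orc1, Rpa3 and Dut. Orc1 was at 28.2 and 33.1 CPM in BiTS(mut) and 31.1 and 42.6 CPM in isotype (-0.26 ± 0.11 with the block). Rpa3, the small subunit of replication protein A, was at 16.5 and 21.8 CPM and 21.4 and 24.8 CPM (-0.28 ± 0.13). In both genes the groups overlapped. Dut was at -0.19 ± 0.08, and none of the 3 was called by edgeR in either fit. All 49 intervals with the block lay within 2-fold, from -0.58 to 0.35.

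Against BiTS(mut), the BiTS libraries gave 0% of genes called without the block (76 genes had an unadjusted p under 0.05, and both DESeq2 and limma-voom called 0) and 136 (0.972%) with it, and again 0 of 49 members. E2f2 was at 0.27 ± 0.09 with the block, with both BiTS libraries above both BiTS(mut) libraries and an adjusted p of 0.137 by edgeR. It was the 1 member called when only the 4 libraries compared were fitted, or when either isotype library was left out. Rrm2 was at -0.15 ± 0.08, without overlap. Pole2, the second subunit of polymerase epsilon, was at 33.3 and 27.4 CPM in BiTS and 26.4 and 23.3 CPM in BiTS(mut), without overlap (0.29 ± 0.12, adjusted p = 0.406). The 49 blocked intervals ran from -0.48 (Gins3) to 0.53 (Pole2).

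**Figure D3:**
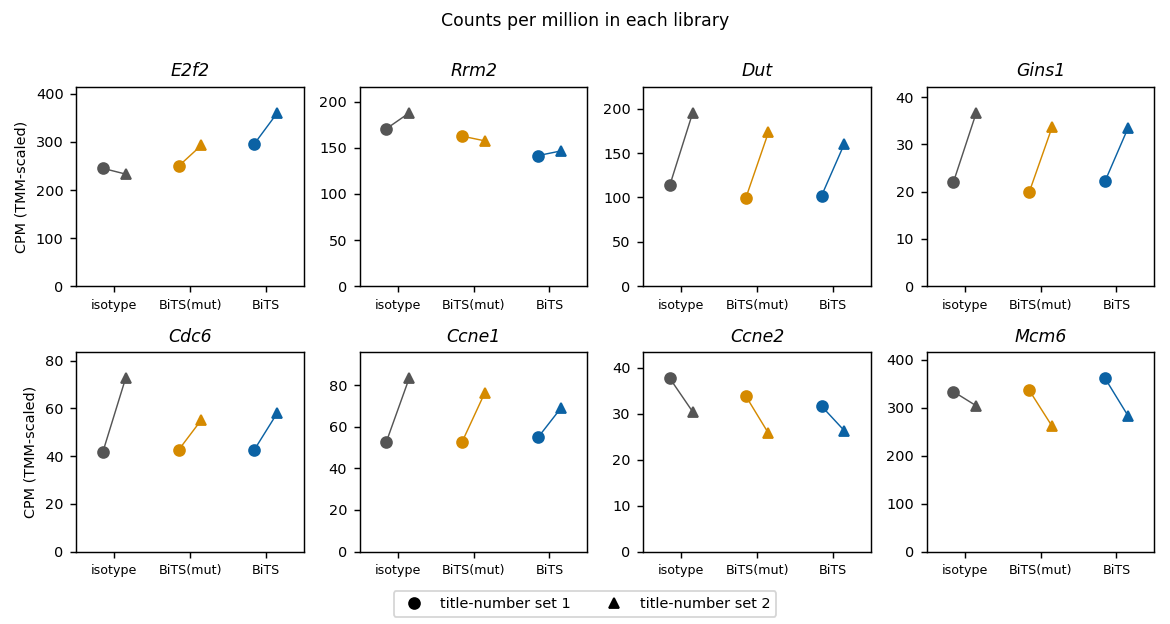
TMM-scaled CPM of 8 members in each library, by treatment, with set 1 as circles and set 2 as triangles joined within a group. E2f2 is highest and Rrm2 lowest in the BiTS libraries, while Dut, Gins1, Cdc6 and Ccne1 are higher and Ccne2 and Mcm6 lower in set 2 of every treatment on this scale.

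More members differed between the sets than between any treatments. Of all genes tested, 7382 (52.7%) were called between set 2 and set 1 with treatment as a covariate, 3618 higher (25.9%) and 3764 lower (26.9%). Of the members 26 (53.1%) were called, a share near that background, and these divided into 23 higher and 3 lower. Under scaling to the ERCC spike-in transcripts the median of all genes moved from 0.02 to -0.74 and that of the members from 0.15 to -0.61. By that scaling 0 members were called higher and 7 lower. Of the 13996 genes tested 6123 were called there, 61 of them higher, a larger share than of the members. The set values below are therefore changes relative to the other genes of the library, and the members stood 0.13 above the median gene under both scalings. By library totals alone the split of called members was 18 higher and 6 lower, beside 7289 genes called, 3066 of them higher.

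In nucleotide supply, the group with the highest median (0.42), the salvage, synthesis and dUTPase genes were called and the reductase genes were not. Dut was at 101.9, 113.9 and 99.0 CPM in set 1 (BiTS, isotype, BiTS(mut)) and at 160.3, 195.2 and 173.5 CPM in set 2. No set 2 library overlapped set 1, and Dut was 1.68-fold higher (0.75 ± 0.07, edgeR adjusted p = 7.88e-13, but -0.01 by spike-in scaling). Tk1, thymidine kinase, was at 71.4, 70.5 and 63.6 CPM and then at 92.1, 98 and 96.9 CPM, again without overlap (0.48 ± 0.07, -0.28 by spike-in scaling). Tyms was at 35.8, 40.2 and 36.7 CPM in set 1 and 48.9, 46.6 and 54.9 CPM in set 2 (0.42 ± 0.09). Rrm1 and Rrm2 overlapped between the sets and were not called, at 0.01 (interval -0.13 to 0.15) and 0.05 (-0.09 to 0.19). The 3 genes called belong to thymidine nucleotide metabolism, and the pair not called encodes ribonucleotide reductase. The called share of these 5 genes, 60%, stands beside 52.7% of all genes tested, so this split is a description only.

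Helicase activation had the next highest median at 0.31, with 4 of 6 genes called higher. Gins1, a GINS subunit, was at 22.3, 22.0 and 19.9 CPM in set 1 and 33.4, 36.7 and 33.6 CPM in set 2, without overlap. It was 1.62-fold higher (0.69 ± 0.10, edgeR adjusted p = 8.48e-08, but -0.07 by spike-in scaling). Gins3 (0.47 ± 0.10), Mcm10 (0.34 ± 0.07) and Gins2 (0.28 ± 0.09) were also called. The fourth GINS subunit, Gins4, was at -0.01 (interval -0.18 to 0.17), and Cdc45 was at 90.4, 85.2 and 87.9 CPM and then at 78.1, 82.6 and 75.1 CPM (-0.16 ± 0.07), without overlap and without a call. The intervals of Gins1 and Gins4, subunits of the same complex, did not overlap.

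Origin licensing genes differed in both directions, with 5 of 10 genes called higher and 1 lower. Cdc6, the licensing loader, was at 42.7, 41.6 and 42.6 CPM in set 1 and 58, 72.5 and 55.2 CPM in set 2 (0.54 ± 0.09, edgeR adjusted p = 6.25e-07, but -0.22 by spike-in scaling). Mcm6, a ring subunit, was at 361.0, 333.5 and 336.2 CPM and then at 283.7, 304.0 and 261.6 CPM (-0.28 ± 0.07, adjusted p = 0.000521). Neither gene overlapped between the sets. The called ring subunits Mcm2 and Mcm7 were at 0.24 each, while Mcm3 (-0.01), Mcm4 (0.03) and Mcm5 (0.12) were not called. The ratio of Mcm6 to Mcm2 per length, a pair chosen after seeing the values, was 3.41, 3.36 and 3.50 in set 1 and 2.38, 2.44 and 2.36 in set 2, and it does not depend on the scaling. Orc1 (0.31 ± 0.09) and Cdt1 (0.19 ± 0.07) were the other licensing genes called higher, and Orc6 was at 0.05.

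The cyclin E genes had opposite signs. Ccne1, cyclin E1, was at 54.9, 52.7 and 52.8 CPM in set 1 and 68.9, 83.2 and 76.5 CPM in set 2 (0.51 ± 0.08, edgeR adjusted p = 4.14e-07, but -0.25 by spike-in scaling). Ccne2, cyclin E2, was at 31.6, 37.7 and 33.9 CPM and then at 26.3, 30.4 and 25.7 CPM (-0.32 ± 0.10, adjusted p = 0.00378). Per length the ratio of Ccne1 to Ccne2 was 1.84 to 2.28 in set 1 and 3.44 to 3.90 in set 2, without overlap and free of the scaling. E2f1 was called higher (0.22 ± 0.08) and E2f2 was not (0.15 ± 0.07, adjusted p = 0.0714 by edgeR).

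Among primase and polymerase genes the accessory and catalytic subunits of polymerase delta, Pold2 (0.36 ± 0.08) and Pold1 (0.25 ± 0.07), and Pola2 of polymerase alpha (0.35 ± 0.07) were called higher. Prim2, the large primase subunit, was called lower, at 62.6, 65.2 and 69.0 CPM in set 1 and 63.1, 56.1 and 53.6 CPM in set 2 (-0.19 ± 0.08, edgeR adjusted p = 0.0421). Its sets overlapped through the BiTS libraries, and the call was lost without any 1 of the isotype and BiTS(mut) libraries. Prim1, its small partner, was at 0.08. In the clamp group Rpa2, a subunit of the single-strand binding protein, was at 52.0, 46.7 and 43.5 CPM and then at 63.0, 67.3 and 66.8 CPM (0.48 ± 0.08, -0.29 by spike-in scaling). Rpa3 (0.31), Rfc2 (0.18) and Lig1, the replicative ligase (0.17), passed the threshold less firmly: of 14 alternatives, Rpa3 and Rfc2 were called in 6 each and Lig1 in 3, which lost its call by DESeq2, by library totals and without any 1 library. Pcna was at 0.00 (interval -0.14 to 0.13). Of the subunits of the chromatin assembly factor, Chaf1a (0.28) was called higher and kept its call in 13 of 14 alternatives. Chaf1b (0.21) was called in 5 of 14, and not by DESeq2 or without any 1 library other than isotype replicate 4. Uhrf1 and Slbp were not called.

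**Figure D4:**
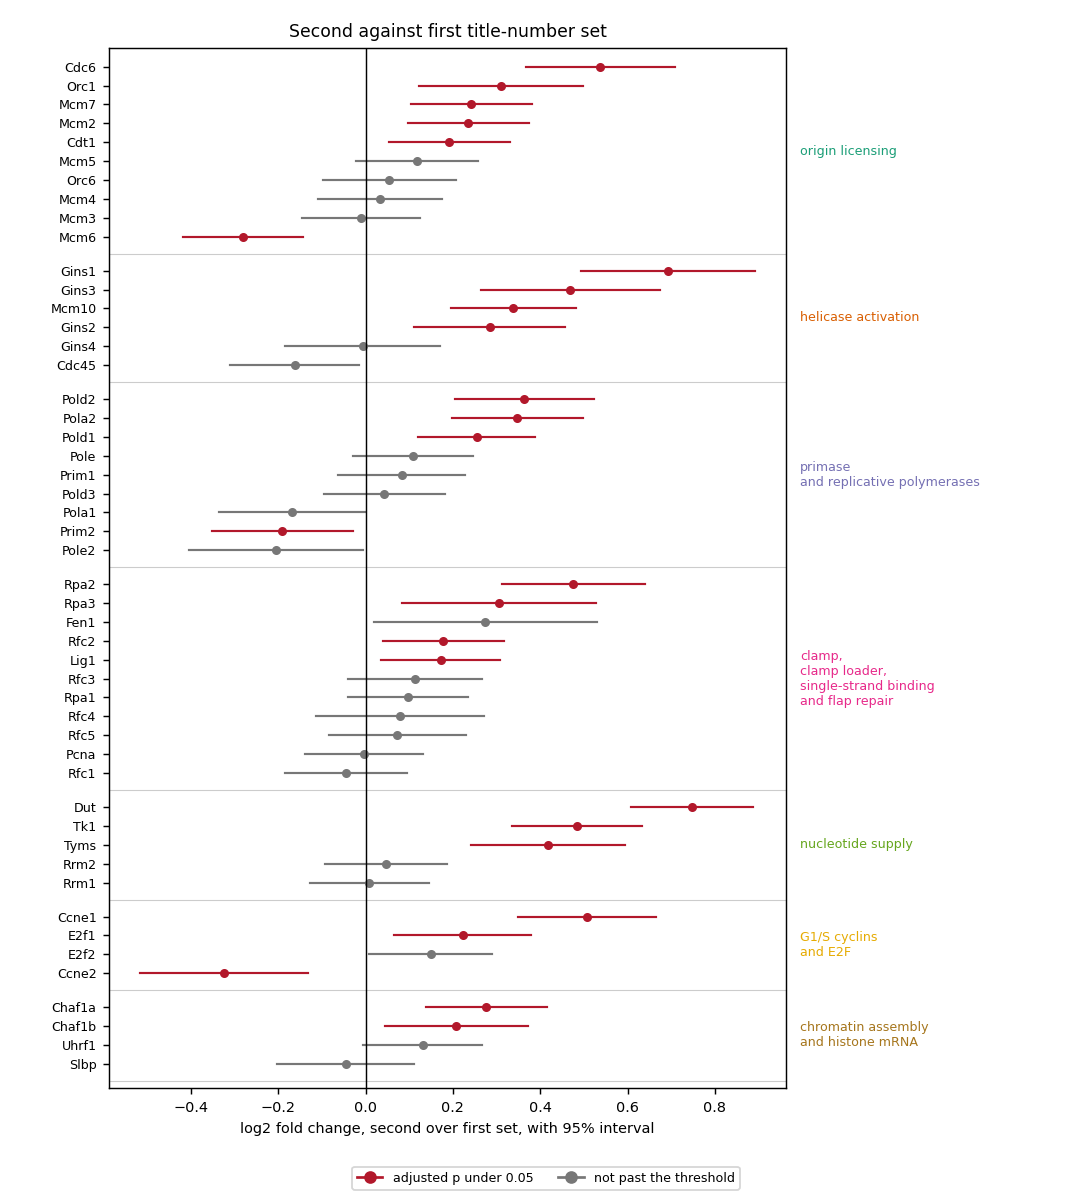
Log2 fold change of set 2 over set 1 for the 49 genes on the TMM scale, with 95% intervals, grouped by role and with the called genes in red. Dut at 0.75 and Gins1 at 0.69 lie farthest right and Ccne2 at -0.32 farthest left. By spike-in scaling 0 members are called higher and 7 lower, beside 6123 of 13996 genes called, 61 of them higher.

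The count of 26 members called fell to 13 without BiTS(mut) replicate 1 and to 14 without BiTS(mut) replicate 2, and lay between 22 and 25 without any other library. Over all 13996 genes tested the count fell as well without these 2 libraries, from 7382 to 5003 and 4993. Those are larger shares than those of the members. With either of those 2 libraries left out, Mcm6, Mcm7, Cdt1, Gins2, Pold1, Ccne2 and E2f1 lost their calls, and without BiTS(mut) replicate 1 so did Mcm2. Markers of other cells moved with the sets as well. Dendritic cell markers summed to 3473 to 4238 CPM in set 1 and 2221 to 2547 CPM in set 2 (17 of 19 lower, 1 higher, median -1.003), and CD8 T cell markers to 1739 to 2156 and 2242 to 2491 CPM (6 of 8 higher, median 0.31). The share of counts in spike-in transcripts was 3.36% to 4.03% in set 1 and 5.14% to 7.54% in set 2. The part of these in the set difference of the replication genes was not tested.

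Features outside the measured values were set beside the set difference. Members with a motif match had a median of 0.14 between the sets (7 of 16 called higher, 1 lower), and those without one 0.22 (13 of 25 called higher, 0 lower). Across the 49 members the set difference went with the GC content of the longest transcript at a Spearman's rho of 0.44, against 0.18 over 13956 genes with a value, and with exon length at -0.14, against -0.26 over 13996 genes. These are descriptions across genes of the same libraries, and genes are not independent replicates.

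Other genes of the same pathways were read from lists of non-members, and their called shares of 65.6%, 68% and 62.5% stand beside the 52.7% of all genes tested. Of 32 further replication genes 15 were called higher and 6 lower in set 2 (median 0.17), led by Rnaseh2c, a ribonuclease H2 subunit (0.75 ± 0.10), Timeless, a fork protection factor (0.50 ± 0.07), and the helicase gene Recql4 (0.57 ± 0.08). Of 25 further nucleotide synthesis genes 14 were higher and 3 lower (median 0.28), with the purine synthesis genes Adsl (0.65), Pfas (0.68) and Gart (0.58) at the smallest p. Of 24 further G1/S regulators 6 were higher and 9 lower (median -0.05), the 3 with the smallest p being lower: Cdkn1b, the inhibitor p27 (-1.14 ± 0.07), Rb1, the retinoblastoma protein (-0.88 ± 0.08), and the cyclin gene Ccnd1 (-0.90 ± 0.11). Cdkn1b was at 149.6, 145.9 and 161.2 CPM in set 1 and 76.4, 63.7 and 67.3 CPM in set 2, without overlap. All these calls are relative to the other genes, as for the members.

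Between BiTS and isotype the same lists gave 1, 0 and 1 calls with the block. These are 3.12%, 0% and 4.17% of the lists, beside 3.4% of all genes tested. Between BiTS and BiTS(mut) the shares were 0%, 4% and 4.17%, beside 0.972%, with at most 1 call per list. Pclaf, which encodes a Pcna-associated factor, was at 131.2 and 144.4 CPM in BiTS and 154.9 and 185.2 CPM in isotype (-0.30 ± 0.08, edgeR adjusted p = 0.0326). Ccnd2, cyclin D2, was at 534.6 and 464.3 CPM in the BiTS libraries, 687.4 and 568.9 CPM in those of isotype, and 657.5 and 583.3 CPM in those of BiTS(mut). Both BiTS libraries lay below the other 4, and Ccnd2 was lower against isotype (-0.33 ± 0.08, adjusted p = 0.0104) and against BiTS(mut) (-0.31 ± 0.08, adjusted p = 0.0351). Against BiTS(mut), Ctps2, a CTP synthase gene, was the other call (0.42 ± 0.11, adjusted p = 0.0396), and against isotype 0 of the 25 nucleotide synthesis genes were called. Of these 25, 80% had negative values, against 50.9% of all genes tested, and their median log2 ratio was 0.07 in set 1 and -0.20 in set 2.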

How the data were processed

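The 6 libraries of bulk RNA were each deposited by the authors as 1 table of raw counts per gene. The submitters' processing notes name mm10 and DESeq2. Which aligner, counter, annotation release and strand setting was used is not given in the sources used here. Symbols came from GENCODE M21 (49412 of 49671 identifiers; the 259 without one held 0.013% of counts, and 92 ERCC spike-in transcripts were left out).

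After TMM scaling and filterByExpr, genes (13996 kept, all 49 members among them) were tested two-sided with edgeR 4.0.16 (limma 3.58.1, R 4.3.3), quasi-likelihood, with Benjamini-Hochberg adjustment over all genes tested and calls under 0.05. All 6 libraries entered with 1 coefficient per group. A second fit added the title-number set as a replicate block. Within a set, the libraries' deviations from their groups' means had correlations of 0.66, 0.74 and 0.73, and the pairing comes from the title numbers alone. The unblocked fit had 3 residual and 3.14 prior degrees of freedom, the blocked one 2 and 45.9, so its small p-values lean on the spread shared over genes. Alternatives were DESeq2 1.42.0, limma-voom, other scalings and filters, and leaving out libraries; the block fitted on 4 libraries was added after seeing the data. The steps were tested on simulated data. Intervals and floors cover counting error only where they concern single counts.

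Members and gene lists were chosen with earlier results of these data known. Named members are those called by treatment, the 3 smallest blocked p per comparison, the 6 largest called set changes each way, and the highest and lowest per length in each role.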

Additional observations from a re-analysis of the deposited data

Results flagged for a closer look

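For some members the log2 ratio between single libraries, on the TMM scale, had opposite signs in 2 groups or sets by more than counting error. Each rests on 1 library per group and set, so the difference was not tested. From set 1 to set 2, Mcm3 was at -0.072 in BiTS and 0.097 in isotype, Mcm4 at -0.11 in BiTS and 0.17 in isotype, and Slbp, the histone mRNA binding protein, at 0.15 in isotype and -0.22 in BiTS(mut).

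For BiTS against isotype, Mcm5 was at 0.23 in set 1 and -0.082 in set 2, Mcm6 at 0.11 and -0.10, and Pold2 at 0.23 and -0.26. For BiTS against BiTS(mut), Prim2 was at -0.14 in set 1 and 0.24 in set 2. For BiTS(mut) against isotype, Mcm5 was at 0.11 and -0.080, and Rfc4, a clamp loader subunit, at 0.22 and -0.30.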

How the results depend on the processing

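Of the recomputed values of the main results, 250 counted as unchanged within a tolerance and 56 as moved. A median near 0 could change sign and still count as unchanged. The member median of BiTS against isotype did so by spike-in scaling, at 0.011 without and 0.006 with the block. Without a filter on low counts the unblocked test called 11 genes for BiTS against isotype, 3 for BiTS against BiTS(mut) and 5 for BiTS(mut) against isotype. With the filter kept and the replicate block added, the calls were 476, 136 and 7, with 2 members called in the first of these. The block changed no other call of a member. With the block, DESeq2 called 160, 41 and 2 genes, spike-in scaling 0, 0 and 1, and fits of only the 4 libraries compared 298, 443 and 11, while no filter gave 14 for BiTS(mut) against isotype. The 2 members called with the block for BiTS against isotype became 1 by DESeq2, 0 by spike-in scaling and 1 with only 4 libraries, and for BiTS against BiTS(mut) 0 became 1 with only 4 libraries.

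Leaving out 1 library at a time with the block gave 79 to 709 genes and 0 to 3 members for BiTS against isotype, 27 to 444 genes and 0 to 1 members for BiTS against BiTS(mut), and 7 to 48 genes and 0 members for BiTS(mut) against isotype, with member medians of -0.0915 to -0.0091, -0.0285 to 0.0663 and -0.138 to -0.0382. Without the block those medians ran from -0.146 to 0.0496, -0.0373 to 0.0974 and -0.18 to 0.0255, each range crossing 0. Spike-in scaling put the median of BiTS against BiTS(mut) at 0.12 without and 0.20 with the block, and that of BiTS(mut) against isotype with the block at -0.19.

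Between the sets, leaving out 1 library gave 13 to 25 members called and 4993 to 7246 genes. Spike-in scaling gave 7 members and 6123 genes called, a member median of -0.61, and a summed member level of 0.658 of set 1 in place of 1.10. It shifts all genes alike, which puts every member below 0, among them Cdc6 (-0.22), Gins1 (-0.069), Rpa2 (-0.29), Tk1 (-0.28), Dut (-0.014) and Ccne1 (-0.25), each called higher in the other 13 alternatives. The cause of the other changes was not tested. With 2 libraries per group, changes well under 2-fold are the limit of what these data resolve, and a library left out leaves an arm with 1 sample assumed to vary like the others.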
